A study of Litchi chinensis with 18 samples.

Results

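Gibberellin metabolism and signalling was described in carpels and stamens of litchi (Litchi chinensis 'Feizixiao') from 61 loci, chosen because their Swiss-Prot annotation names gibberellin, a DELLA protein, an early enzyme of gibberellin synthesis (ent-copalyl, ent-kaurene, ent-kaurenoic) or the F-box protein GID2. They are 61 of the 34024 loci in the deposited table, and the 63 gene models that carry the annotations were summed by locus. RNA-seq libraries were made from detached organs of full-bloom flowers of 3 types, with 3 libraries for each of the 6 organs. F flowers are functionally female and carry rudimentary stamens, M flowers are functionally male with a rudimentary pistil that is not obvious, and m flowers are functionally male with a rudimentary pistil that is obvious. The organs are named F-stamen, M-stamen, m-stamen, F-carpel, M-carpel and m-carpel. The annotation places 7 loci in early synthesis, 21 in late synthesis, 11 in deactivation, 4 among the receptors, 12 among the DELLA proteins and 4 among the gibberellin-regulated proteins, with 1 F-box locus and 1 chitin-inducible gibberellin-responsive locus.

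Gibberellins are diterpenoid hormones. Copalyl diphosphate synthase, kaurene synthase, kaurene oxidase and kaurenoic acid oxidase build the precursor, GA20ox and GA3ox complete the active forms, and GA2ox inactivates them. The hormone binds the receptor GID1, which then binds DELLA proteins, the repressors of the response, and an F-box protein (GID2 in rice) marks the DELLA protein for breakdown. In Arabidopsis the hormone is needed for growth of the stamen filament and for pollen development.

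Total counts were between 25689398 and 32302522 per library, and with a floor of 3 counts a locus without reads in the shallowest library could be at up to 0.117 CPM (counts scaled to library size), by counting error only. Levels are given in FPKM (fragments scaled to transcript length and to mapped reads), and differences are log2 fold changes of the counts with their standard error (SE), called where the adjusted p was below 0.01 and the log2 value was at least 1 in size, by edgeR's quasi-likelihood test with Benjamini-Hochberg adjustment over 24666 loci. The sources state sampling in triplicate without saying whether the libraries of an organ came from separate trees, so p-values measure the spread between these libraries. In whole organs, fewer cells of a type and less RNA per cell cannot be told apart. The organ labels were checked against markers. LcPI, the B-class gene of stamens and petals, was in F-carpel at 0.637% and in m-carpel at 1.07% of its level in the stamens of the same flowers, but in M-carpel at 11.9%. LcAP3-1, another B-class gene, gave another order, with F-carpel at 35.99% of its stamen level, M-carpel at 20.1% and m-carpel at 17.5%. The carpel gene LcSHP averaged 26.2 FPKM in F-carpel, 7.83 FPKM in M-carpel and 18.2 FPKM in m-carpel, and M-carpel was below all 3 stamen means (9.28 to 16.5 FPKM). LcSTK, an ovule gene, averaged 32.9 FPKM in F-carpel, 1.12 FPKM in M-carpel and 7.85 FPKM in m-carpel, while the carpel gene CRABS CLAW was highest in M-stamen, at 56.2 FPKM. The summed level of the 8 pollen or anther loci ran from 1366 to 2886 FPKM in stamens and from 87.9 to 358 FPKM in carpels, with 1 of the 8 loci at 0 in each carpel organ. LITCHI010442 carried most of it in F-carpel and M-carpel. It went the other way in F flowers, with means of 316.8 FPKM in F-carpel and 165 FPKM in F-stamen. In M and m flowers the stamen was higher, at 312 and 180 FPKM beside 161 and 46.7 FPKM in the carpel. Without this locus the sums ran from 1074 to 2697 FPKM in stamens. In carpels they ran from 26.0 to 29.99 FPKM in F-carpel, 74.5 to 77.9 FPKM in M-carpel and 42.1 to 51.6 FPKM in m-carpel.

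Of the 61 loci, 45 passed the filter on low counts and 6 had 0 counts in all libraries, which over all 18 libraries allows up to 0.00564 CPM. Among the 45, 38 (84.4%) were called in at least 1 of 10 organ comparisons, against 70.9% of all loci tested. By mean FPKM, 15 of the 45 were highest in F-carpel, 9 in F-stamen, 7 in M-stamen, 6 in m-carpel, 5 in m-stamen and 3 in M-carpel. In the background of all loci, 34.2% were highest in F-carpel and 17.6% in F-stamen. The 16 loci that did not pass had at most 16 counts in any library. The 7 loci called in no comparison included the abundant DELLA loci LITCHI005812 and LITCHI005813 and the abundant kaurenoic acid oxidase locus LITCHI008022.

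**Figure D1:**
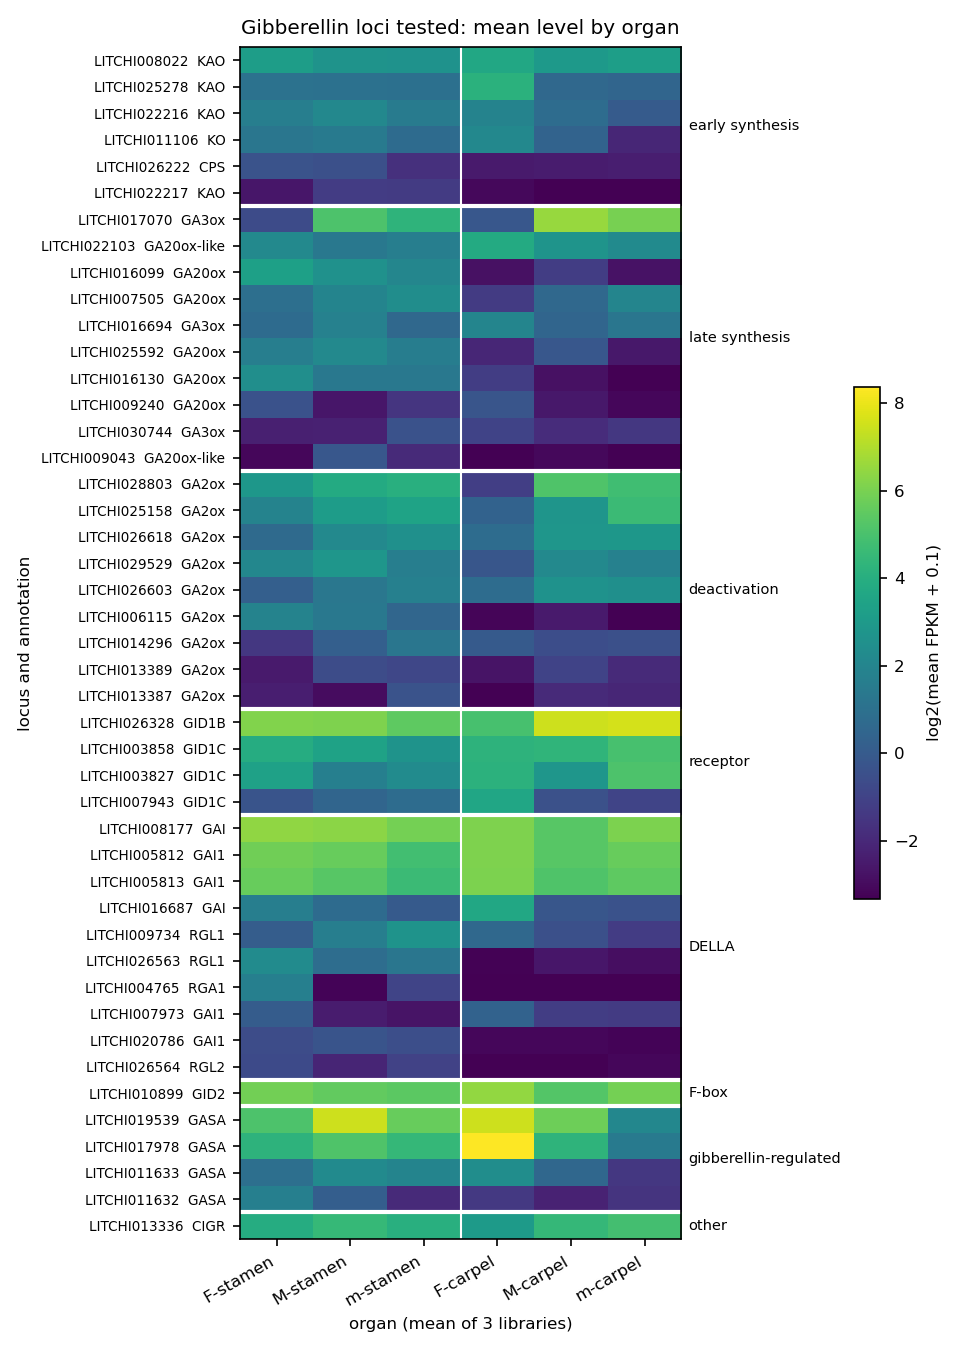
Mean level of the 45 tested loci in the 6 organs, as log2(mean FPKM + 0.1) of 3 libraries, with loci in rows grouped by role (KAO, kaurenoic acid oxidase; KO, kaurene oxidase; CPS, copalyl diphosphate synthase; GASA, gibberellin-regulated protein; CIGR, chitin-inducible gibberellin-responsive protein). LITCHI017070 (GA3ox) is dark in F-stamen and F-carpel and bright in the other 4 organs, whereas LITCHI017978 (GASA) is brightest in F-carpel, at a mean of 330.3 FPKM.

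The summed level of early synthesis was highest in F-carpel, though not every locus peaked there. The summed level of the 7 loci averaged 38.1 ± 0.851 FPKM in F-carpel (SD, n = 3), against 12.3 ± 0.716 FPKM in M-carpel and 11.6 ± 0.735 FPKM in m-carpel, and it was between 12.2 and 17.6 FPKM in single stamen libraries. Most of the excess lay in LITCHI025278, a kaurenoic acid oxidase locus, which catalyses the last early step. It had 17.3, 17.7 and 17.2 FPKM in F-carpel, 1.74, 1.19 and 1.45 FPKM in M-carpel and 1.53, 1.26 and 1.15 FPKM in m-carpel. No library of another organ exceeded 2.30 FPKM, so F-carpel stood apart from the other 5 organs without overlap. The locus was higher in F-carpel than in M-carpel by a log2 fold change of 3.38 (SE 0.18, adjusted p = 1.35e-11) and than in m-carpel by 3.48 (SE 0.18, adjusted p = 6.89e-12).

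LITCHI011106, the kaurene oxidase locus, showed a graded pattern in carpels. It had 4.71, 4.25 and 3.96 FPKM in F-carpel, 0.890, 1.70 and 1.03 FPKM in M-carpel and 0.0598, 0.245 and 0.114 FPKM in m-carpel. All 3 carpels were separated from each other, with log2 fold changes of 1.62 for F-carpel against M-carpel, 4.66 for F-carpel against m-carpel and 3.04 for M-carpel against m-carpel. The most abundant early locus, LITCHI008022, is annotated as a kaurenoic acid oxidase, but its protein domains also include those of another family, so the model may not hold this enzyme alone. It differed by log2 fold changes between -0.37 and 0.48 in the 10 organ comparisons and was not called. Of the 6 early loci tested, 2 rose and 0 fell in F-carpel against M-carpel, where 32.7% of all loci were called (16.3% higher, 16.4% lower). Against m-carpel 3 rose and 0 fell, with 38.3% of all loci called (20.6% higher, 17.7% lower). The additional locus against m-carpel was the kaurenoic acid oxidase LITCHI022216, with 3.49, 3.53 and 4.09 FPKM in F-carpel, 1.73, 1.64 and 1.61 FPKM in M-carpel and 0.885, 1.04 and 0.824 FPKM in m-carpel (1.76 for F-carpel against m-carpel, SE 0.17). Single stamen libraries had 2.40 to 4.67 FPKM of it, overlapping F-carpel. The copalyl diphosphate synthase locus LITCHI026222 was low, at most 0.967 FPKM in any library, and was higher in stamens than in carpels (log2 fold change 2.40, SE 0.37, adjusted p = 1.46e-05). Unlike the sum, it had its lowest organ mean in F-carpel, at 0.0780 FPKM.

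Among loci with a mean of at least 1 CPM, the largest log2 fold change between flower types was in late synthesis. LITCHI017070, annotated as GA3ox, the enzyme of the last activating step, had 0.536, 0.581 and 0.493 FPKM in F-stamen, 34.9, 30.6 and 35.7 FPKM in M-stamen and 20.5, 19.3 and 19.0 FPKM in m-stamen. In carpels it had 0.454, 1.05 and 0.900 FPKM in F-carpel, 101, 93.1 and 92.4 FPKM in M-carpel and 60.9, 61.0 and 64.3 FPKM in m-carpel. Each library of the F flowers was below each library of the M and m flowers, in stamens as in carpels. F-carpel was lower by 7.08 on the log2 scale than M-carpel (log2 fold change -7.08, SE 0.17, adjusted p = 2.42e-16) and by 6.51 than m-carpel (-6.51, SE 0.16, adjusted p = 3.98e-16). F-stamen was lower than M-stamen (-6.07, SE 0.17, adjusted p = 9.21e-15) and than m-stamen (-5.53, SE 0.17, adjusted p = 2.35e-14). Those 4 differences were called under every alternative run. Between the rudimentary carpels the difference was below the threshold (0.57 for M-carpel against m-carpel). M-carpel carried more LcPI RNA than the other carpels. Its level of LITCHI017070, 92.4 to 101 FPKM, was above that of M-stamen, 30.6 to 35.7 FPKM. The part of stamen RNA in these levels was not tested.

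Within M and m flowers the stamen was lower than the carpel in this locus, with log2 fold changes of -1.45 (SE 0.12) in M flowers and -1.42 (SE 0.12) in m flowers. Averaged over the 3 flower types, stamens were lower by 1.10 on the log2 scale (-1.10, adjusted p = 5.47e-09), and with both organs of the M flowers left out the value was -0.93, below the threshold of size. In F flowers alone the difference was -0.44 (adjusted p = 0.0869) and was not called. The other GA3ox loci were low. LITCHI016694 lay between 0.892 and 4.27 FPKM in all libraries and was higher in F-carpel than in M-carpel (1.42, SE 0.24, adjusted p = 6.62e-05), the opposite direction to LITCHI017070. The protein domains of LITCHI016694 also include a WD domain, so the model may not hold a GA3ox alone. LITCHI030744 reached at most 0.964 FPKM. Hence LITCHI017070 held 98.5% of the summed GA3ox level in M-carpel, 96.1% in m-carpel, 90.4% in M-stamen and 90.2% in m-stamen, whereas in F-carpel LITCHI016694 held 76.6% of it.

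**Figure D2:**
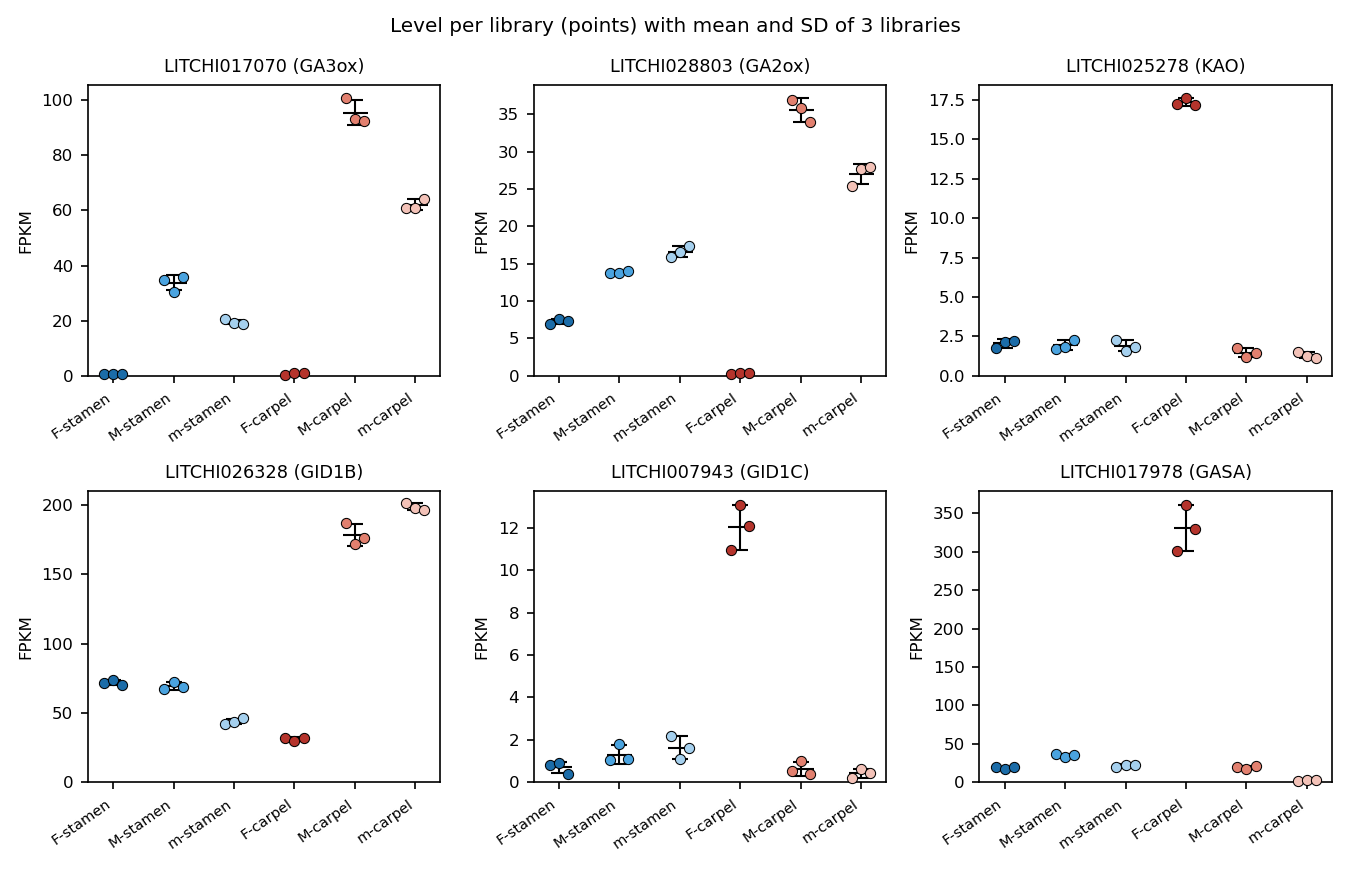
FPKM in each of the 18 libraries (points), with the mean and SD of 3 libraries (bars), for a GA3ox, a GA2ox, a kaurenoic acid oxidase (KAO), both kinds of GID1 receptor and a gibberellin-regulated (GASA) locus. LITCHI017070 sits at or below 1.05 FPKM in the F flower libraries and at or above 19.0 FPKM in the others, and LITCHI025278, LITCHI007943 and LITCHI017978 are highest in F-carpel.

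GA20ox, which carries out the steps before GA3ox, had its highest summed levels in stamens. The 15 loci summed to 21.0 ± 0.410 FPKM in F-stamen, 16.6 ± 1.86 FPKM in M-stamen and 14.97 ± 1.33 FPKM in m-stamen, and to 1.57 ± 0.329 FPKM in F-carpel, 3.21 ± 0.0821 FPKM in M-carpel and 4.01 ± 0.479 FPKM in m-carpel (SD, n = 3). Of the 5 loci tested, 4 rose and 0 fell in stamens against carpels, where 32.2% of all loci were called (20% higher, 12.2% lower). The remaining tested locus, LITCHI009240, was low. Its highest organ mean was in F-carpel, at 0.744 FPKM, beside 0.666 FPKM in F-stamen. LITCHI016099 had 9.19, 11.9 and 8.59 FPKM in F-stamen, 4.95, 5.89 and 6.69 FPKM in M-stamen and 4.41, 3.79 and 3.75 FPKM in m-stamen, and at most 0.453 FPKM in a carpel library. Stamens and carpels did not overlap (log2 fold change 6.12, SE 0.36, adjusted p = 3.53e-11).

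LITCHI016130 had 5.97, 4.82 and 5.40 FPKM in F-stamen, 2.11, 2.31 and 3.09 FPKM in M-stamen and 3.05, 2.33 and 2.04 FPKM in m-stamen. In carpels it had 0.211, 0.643 and 0.152 FPKM in F-carpel, 0, 0.126 and 0 FPKM in M-carpel and 0 in all m-carpel libraries. With 3 counts over the organ as the floor, it was at least 109-fold higher in m-stamen than in m-carpel, and at least 14.7-fold higher in F-carpel than in m-carpel. LITCHI025592 had a like pattern, with 2.52 to 4.61 FPKM in single stamen libraries and 0.0625 to 0.955 FPKM in carpels, where M-carpel was the highest. M-carpel exceeded m-carpel there by a log2 fold change of 3.41 (SE 0.29, adjusted p = 2.55e-08). M-carpel also had more LcPI RNA than m-carpel, and the part of stamen RNA in this difference was not tested.

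LITCHI007505 was also called higher in stamens than in carpels, but its next highest organ was m-carpel. Its mean was 5.18 FPKM in m-stamen and 3.88 FPKM in m-carpel. It had 0.254, 0.368 and 0.289 FPKM in F-carpel, 1.31, 1.38 and 1.64 FPKM in M-carpel and 3.48, 4.49 and 3.66 FPKM in m-carpel, and in each organ kind the F flowers were lowest without overlap. Its log2 fold changes were -2.41 for F-carpel against M-carpel, -3.87 for F-carpel against m-carpel, -1.14 for F-stamen against M-stamen and -1.88 for F-stamen against m-stamen. Reads on this family are uncertain, since 12 of the 15 loci carry identifiers between LITCHI016075 and LITCHI016130 and counting could have split reads between like copies. The 6 gibberellin loci with 0 counts are all in that run. The related GA20ox-like locus LITCHI022103 was highest in F-carpel, with 13.6, 14.6 and 14.0 FPKM. Single libraries of the other organs had 2.16 to 7.63 FPKM.

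Deactivation was low in F flowers, in both organs. The 11 GA2ox loci summed to 21.7 ± 1.76 FPKM in F-stamen, 40.4 ± 1.90 FPKM in M-stamen and 44.55 ± 1.28 FPKM in m-stamen (SD, n = 3). In carpels they summed to 6.52 ± 0.0987 FPKM in F-carpel, 61.1 ± 2.90 FPKM in M-carpel and 68.7 ± 4.39 FPKM in m-carpel. Of the 9 loci tested, 5 fell and 0 rose in F-carpel against M-carpel (16.4% of all loci lower), and 5 fell and 0 rose against m-carpel (17.7% lower). The median log2 fold change of the 9 loci was -2.68 against M-carpel and -2.36 against m-carpel, where the median of all loci was 0.00 in both, and neither median moved when loci at 0 were set to their bound. In F-stamen 5 fell and 0 rose against M-stamen, where 18.7% of all loci were called (10.6% higher, 8.1% lower), and 5 fell and 0 rose against m-stamen, with 22.9% called (12.9% higher, 10% lower). The medians there were -1.25 and -1.98, beside 0.18 and 0.10 for all loci. In F-stamen against M-stamen only 2 fell with limma on log2(FPKM + 1), and in the carpel comparisons 5 or 6 fell in every alternative.

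LITCHI028803 was the most abundant GA2ox locus and differed most. It had 0.295, 0.379 and 0.362 FPKM in F-carpel, 37.0, 35.9 and 33.9 FPKM in M-carpel and 25.5, 27.6 and 28.0 FPKM in m-carpel. In stamens it had 6.90, 7.58 and 7.35 FPKM in F-stamen, 13.7, 13.8 and 14.1 FPKM in M-stamen and 15.8, 16.6 and 17.4 FPKM in m-stamen. F-carpel was the lowest organ and F-stamen the next, without overlap with any M or m organ. The log2 fold changes were -6.85 (SE 0.11, adjusted p = 1.73e-18) for F-carpel against M-carpel, -6.51 (SE 0.11) against m-carpel, -1.04 (SE 0.08) for F-stamen against M-stamen and -1.55 (SE 0.08) against m-stamen.

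The GA2ox locus LITCHI025158 followed with its maximum in m-carpel. It had 0.957, 1.61 and 0.914 FPKM in F-carpel, 6.77, 6.30 and 7.36 FPKM in M-carpel and 23.0, 27.0 and 23.6 FPKM in m-carpel. It separated the rudimentary carpels, with M-carpel lower than m-carpel (log2 fold change -1.90, SE 0.16, adjusted p = 2.15e-08), and F-carpel lower than both (-2.73 and -4.63). LITCHI026618 ranged from 1.24 to 1.85 FPKM in the 6 libraries of F flowers and from 3.73 to 7.30 FPKM in the 12 libraries of M and m flowers. It fell in all 4 comparisons of F organs with M and m organs, with log2 fold changes between -1.61 and -2.36, and LITCHI026603 fell in the same 4, with values between -1.25 and -2.07. LITCHI029529 fell in the carpel comparisons (-2.68 and -2.36) and was not called between stamens.

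The GA2ox family also held loci of another pattern. LITCHI006115 was read in stamens, with 2.93, 4.17 and 3.69 FPKM in F-stamen, 2.61, 2.59 and 2.25 FPKM in M-stamen and 1.16, 1.37 and 1.53 FPKM in m-stamen, and its carpel libraries were at 0 except for 0.0382 FPKM in an F-carpel and 0.232 FPKM in an M-carpel library. It was at least 68.3-fold higher in m-stamen than in m-carpel. LITCHI014296 was lowest in F-stamen, with 0.142, 0.220 and 0.462 FPKM, against 0.914, 1.17 and 1.09 FPKM in M-stamen and 1.78, 2.29 and 2.77 FPKM in m-stamen. Its fall in F-stamen was -2.01 against M-stamen and -3.36 against m-stamen on the log2 scale, while F-carpel did not differ by the threshold from M-carpel (0.39) or m-carpel (0.28).

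**Figure D3:**
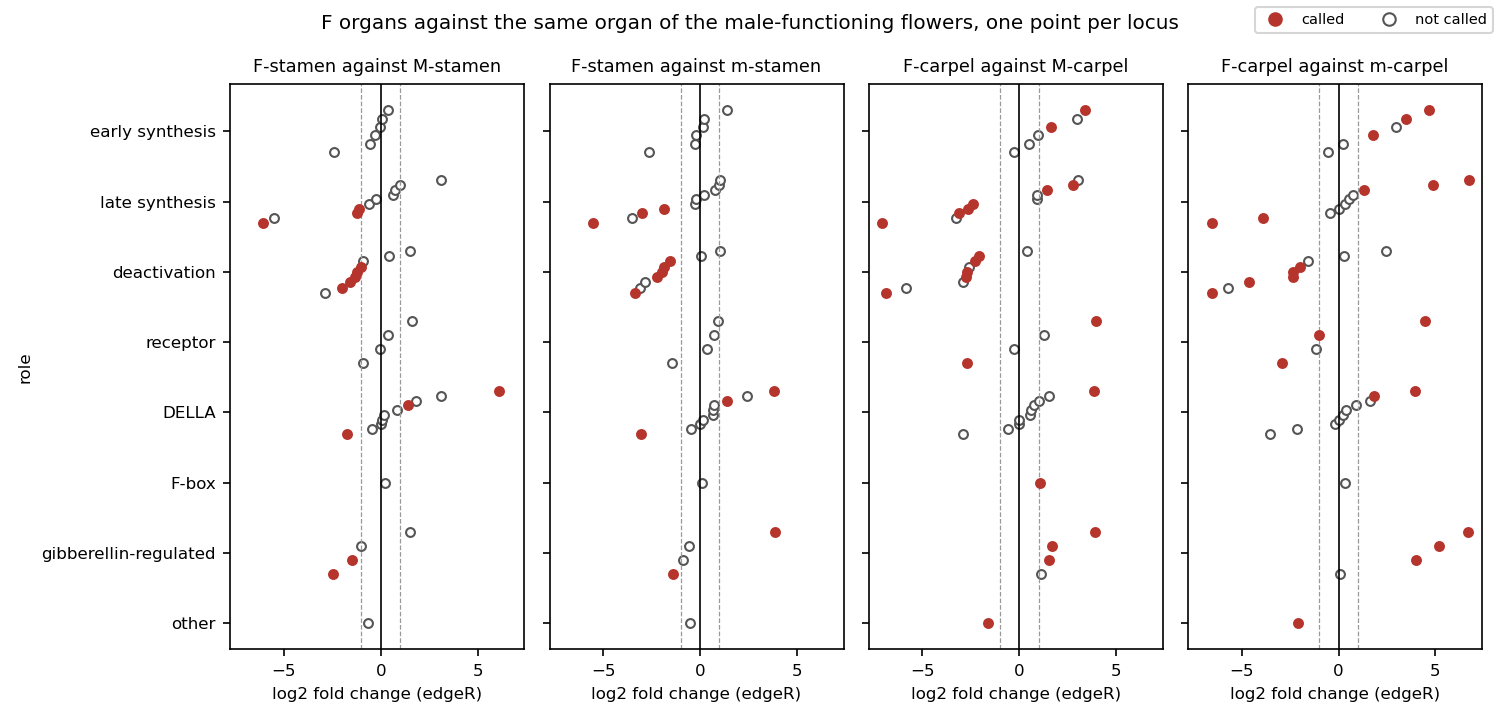
Log2 fold change of each tested locus by role for F-stamen against each of the other stamens and F-carpel against each of the other carpels (filled, called; open, not called; dashed lines at -1 and 1). Of the 9 GA2ox loci (deactivation), 5 are called in each panel, all to the left of 0; fitted values of loci at 0 in an organ depend on the prior count of the fit.

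**Figure D4:**
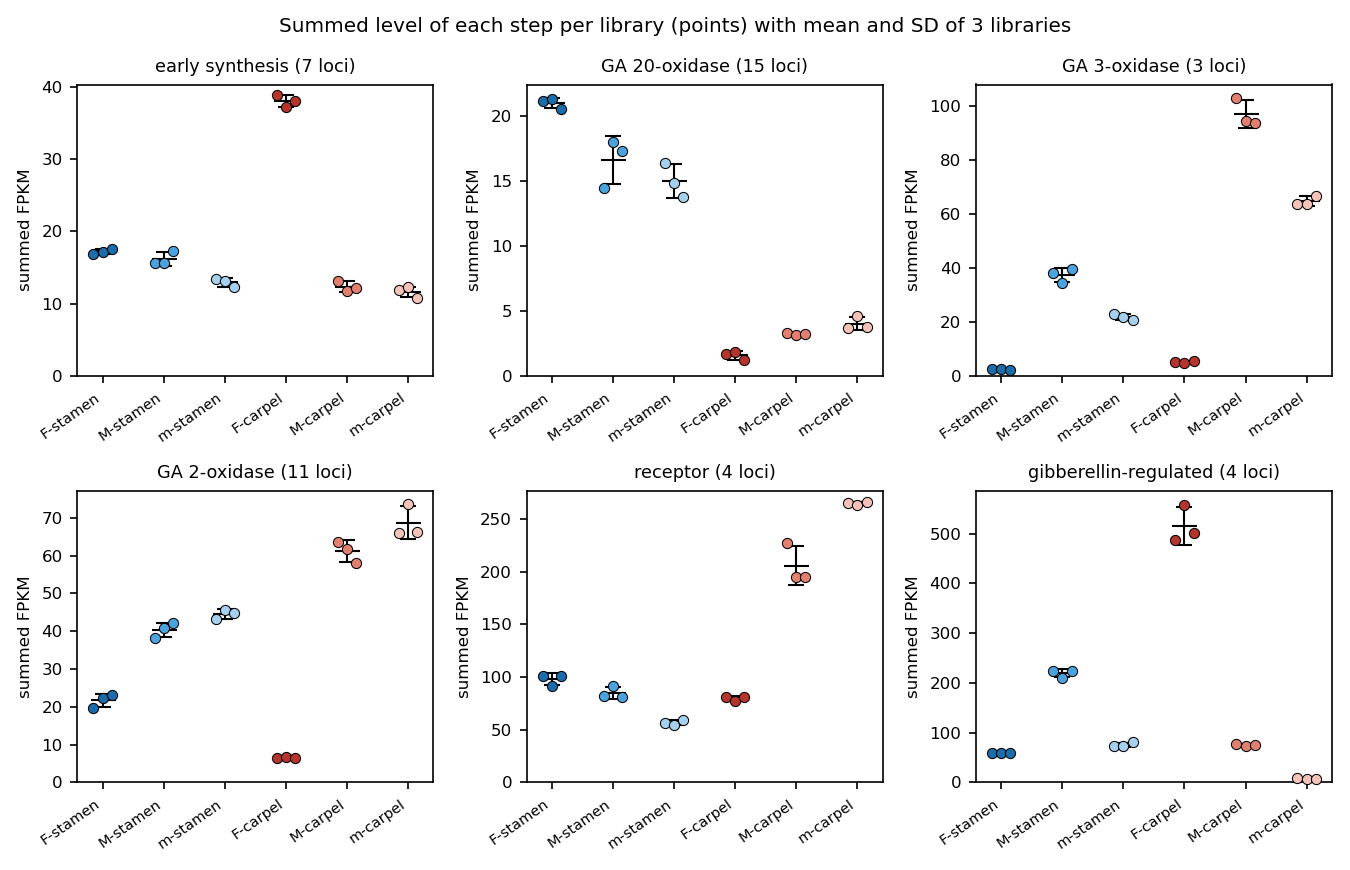
Summed FPKM of the loci of a step in each library (points), with the mean and SD of 3 libraries (bars). Early synthesis and the gibberellin-regulated loci peak in F-carpel, GA20ox is high in the 3 stamens, and GA3ox and GA2ox are low in F-carpel, at 5.15 and 6.52 FPKM, and high in M-carpel and m-carpel.

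The receptors changed in opposite directions in F-carpel. LITCHI026328, annotated as GID1B and the most abundant receptor, had 31.8, 29.7 and 31.8 FPKM in F-carpel, 187, 171 and 176 FPKM in M-carpel and 201, 198 and 196 FPKM in m-carpel. In stamens it was between 67.3 and 73.8 FPKM in F-stamen and M-stamen and between 42.0 and 46.1 FPKM in m-stamen. F-carpel was therefore the lowest of the 6 organs, lower than M-carpel (log2 fold change -2.71, SE 0.04, adjusted p = 6.2e-19) and than m-carpel (-2.92, SE 0.04, adjusted p = 2.31e-19). F-stamen was higher than F-carpel (1.33), whereas M-stamen and m-stamen were lower than the carpels of their flowers (-1.31 and -1.93). This difference between flower types was itself called (interaction 2.64 against M flowers and 3.27 against m flowers).

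LITCHI007943, annotated as GID1C, had the reverse pattern at a lower level. It had 10.9, 13.1 and 12.1 FPKM in F-carpel and at most 2.18 FPKM in any other library. F-carpel was higher than M-carpel by a log2 fold change of 3.95 (SE 0.47, adjusted p = 9.54e-07) and than m-carpel by 4.45 (SE 0.49, adjusted p = 2.63e-07). LITCHI003858, also annotated as GID1C, was lowest in m-stamen, with 5.99, 7.31 and 5.42 FPKM, and highest in m-carpel, with 30.4, 31.0 and 32.8 FPKM (log2 fold change -2.08 for m-stamen against m-carpel, SE 0.14).

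LITCHI003827, the remaining GID1C locus, varied strongly between libraries of F-stamen, M-stamen and M-carpel. It had 1035, 0 and 1051 counts in F-stamen, 56, 547 and 0 in M-stamen, 409, 212 and 402 in m-stamen, 1360, 1097 and 1279 in F-carpel, 1227, 10 and 0 in M-carpel and 2327, 2325 and 2222 in m-carpel. LITCHI003858 had no such gaps, with 498 to 2820 counts. The ratio of LITCHI003827 to LITCHI003858 was between 0.699 and 0.840 in 12 libraries and between 0 and 0.303 in the other 6. The loci with the identifiers just before each of the pair, LITCHI003826 and LITCHI003857, had ratios between 0.935 and 1.56 in all 18 libraries. Counts of 0 in 1 library of an organ beside 500 or more in another were seen in 5 to 15 of the 24666 loci per organ. No comparison called LITCHI003827, and its standard errors between single organs were 1.31 to 1.42 on the log2 scale, so no order of its levels is given. With the counts of the pair summed, the fall in m-stamen against m-carpel was -2.28 on the log2 scale and was still called. Whether reads were moved between like copies was not tested.

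**Figure D5:**
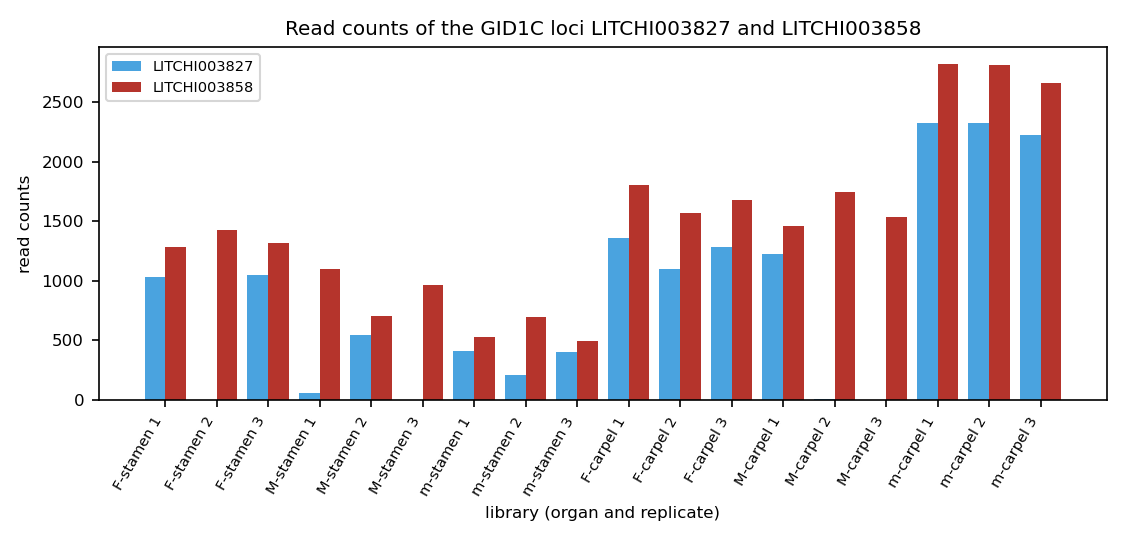
Read counts of the GID1C loci LITCHI003827 and LITCHI003858 in each library. LITCHI003827 is at 0 in F-stamen 2, M-stamen 3 and M-carpel 3 and at 10 counts in M-carpel 2, while LITCHI003858 is between 498 and 2820 counts throughout.

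The abundant DELLA loci were rarely called. LITCHI008177, LITCHI005812 and LITCHI005813 made up most of the summed DELLA level, which averaged 206.8 FPKM in F-stamen, 179 FPKM in M-stamen, 125 FPKM in m-stamen, 221 FPKM in F-carpel, 117 FPKM in M-carpel and 161 FPKM in m-carpel. LITCHI008177 had 84.2, 75.3 and 81.4 FPKM in M-stamen and 40.8, 40.3 and 37.8 FPKM in M-carpel, and this was its only call (log2 fold change 1.07, SE 0.06). LITCHI005812 and LITCHI005813 have neighbouring identifiers and were at FPKM ratios between 0.943 and 1.45 in all libraries. By domain annotation LITCHI005812 carries only a GRAS domain and LITCHI005813 only the DELLA N-terminal domain. Whether they are parts of the same gene was not tested, and the summed DELLA level counts both. Neither locus was called, with log2 fold changes of at most 0.77.

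Several DELLA loci of lower level differed between organs. LITCHI016687 had 12.02, 13.2 and 12.8 FPKM in F-carpel, 1.00, 0.575 and 0.712 FPKM in M-carpel and 0.961, 0.625 and 0.446 FPKM in m-carpel, and 2.95 to 3.24 FPKM in F-stamen, the next organ. F-carpel exceeded M-carpel by a log2 fold change of 3.86 (SE 0.23, adjusted p = 8.5e-11) and m-carpel by 3.97 (SE 0.23, adjusted p = 4.51e-11). LITCHI026563, annotated as RGL1, was read in stamens, with 5.41, 4.72 and 4.63 FPKM in F-stamen, 1.61, 2.03 and 1.52 FPKM in M-stamen and 2.17, 2.13 and 2.68 FPKM in m-stamen, and at most 0.137 FPKM in a carpel library. F-stamen had 616 counts and F-carpel 1 count in all, a ratio of 636 with an exact 95% interval from 114 to 25159 for counting error.

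LITCHI009734, also annotated as RGL1, had the opposite order among stamens. It had 0.825, 0.887 and 1.23 FPKM in F-stamen, 2.98, 2.90 and 3.40 FPKM in M-stamen and 6.54, 5.91 and 6.80 FPKM in m-stamen, and the 3 stamens did not overlap. The log2 fold changes were -1.77 for F-stamen against M-stamen, -3.06 for F-stamen against m-stamen and -1.30 for M-stamen against m-stamen. LITCHI004765, annotated as RGA1, had 2.45, 3.86 and 3.33 FPKM in F-stamen and at most 0.0219 FPKM in M-stamen and 0.743 FPKM in m-stamen, and no count in a carpel. It was at least 35.1-fold higher in F-stamen than in F-carpel. Of the 10 DELLA loci tested, 5 rose and 0 fell in stamens against carpels (32.2% of all loci called, 20% higher). LITCHI004765 was among the 5. Its call was lost without M-stamen replicate 2 (log2 fold change 4.53) and with limma on log2(FPKM + 1). Those 5 had organ means of at most 6.41 FPKM. By domain annotation all 5 carry a GRAS domain without the DELLA N-terminal domain, and whether they act as DELLA proteins was not tested. Of these, LITCHI020786 (GAI1) had 0.429 to 0.860 FPKM in single stamen libraries and at most 0.0258 FPKM in carpels, and LITCHI026564 (RGL2) had 0.114 to 0.627 FPKM in stamens and at most 0.0224 FPKM in carpels. LITCHI007973 (GAI1) reached 1.37 FPKM and was called in F-stamen against m-stamen alone among the 10 organ comparisons (log2 fold change 3.83). Its mean in m-stamen was 0.0512 FPKM. The call was lost when any m-stamen library, F-stamen replicate 1 or F-stamen replicate 3 was left out. It was also lost with gene models kept apart and with limma on log2(FPKM + 1). LITCHI026564 was at least 36.8-fold higher in F-stamen than in F-carpel.

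LITCHI010899, the F-box locus GID2, had 92.0, 89.6 and 87.6 FPKM in F-carpel, 40.4, 36.01 and 38.0 FPKM in M-carpel and 54.1, 58.1 and 67.6 FPKM in m-carpel. F-carpel was higher than M-carpel (log2 fold change 1.04, SE 0.07, adjusted p = 1.16e-09), and the other 9 organ comparisons were below the threshold. LITCHI013336, the chitin-inducible gibberellin-responsive locus of the GRAS family, was lowest in F-carpel, with 7.86, 8.64 and 8.08 FPKM, against 23.2, 18.9 and 23.6 FPKM in M-carpel and 29.3, 28.3 and 30.5 FPKM in m-carpel. It fell by 1.61 and by 2.08 on the log2 scale (SE 0.08 each).

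The gibberellin-regulated loci, small cysteine-rich proteins of the GASA family, were high in F-carpel. LITCHI017978 (gibberellin-regulated protein 14) had 301, 361 and 329 FPKM in F-carpel, 20.01, 17.2 and 21.0 FPKM in M-carpel and 1.74, 2.998 and 3.50 FPKM in m-carpel, and 17.4 to 36.5 FPKM in stamens. F-carpel was above every other organ, and M-carpel above m-carpel, without overlap. The log2 fold changes were 3.90 (SE 0.14, adjusted p = 1.21e-13) against M-carpel, 6.67 (SE 0.17, adjusted p = 6.79e-16) against m-carpel and 2.77 (SE 0.17) for M-carpel against m-carpel. Of the 4 loci of this group, 3 rose and 0 fell in F-carpel against either of the rudimentary carpels, where 16.3% (M-carpel) and 20.6% (m-carpel) of all loci were higher.

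LITCHI019539 (gibberellin-regulated protein 4) was high in a stamen as well. It had 33.1, 37.0 and 34.1 FPKM in F-stamen, 181, 171 and 183 FPKM in M-stamen and 49.3, 46.5 and 54.2 FPKM in m-stamen. In carpels it had 180, 192 and 167 FPKM in F-carpel, 55.9, 54.3 and 52.7 FPKM in M-carpel and 5.44, 3.28 and 3.77 FPKM in m-carpel. M-stamen and F-carpel overlapped, and each was above the other 4 organs. M-stamen was also the organ with the most CRABS CLAW, at 56.2 FPKM beside 31.2 FPKM in M-carpel. LcSTK averaged 0.413 FPKM in M-stamen and 1.12 FPKM in M-carpel, and LcSHP 16.5 and 7.83 FPKM. The part of carpel RNA in the M-stamen level of LITCHI019539 was not tested. In F flowers the stamen was lower than the carpel (-2.24), while in M and m flowers it was higher (1.76 and 3.81), and the difference between flower types was called (interaction -4.00 and -6.05). LITCHI011633 (protein 9) turned in the same way, with -1.38 in F flowers, 1.82 in M flowers and 4.03 in m flowers. LITCHI011632 (protein 2) was low, with 2.95, 3.19 and 3.31 FPKM in F-stamen, 0.646, 1.64 and 0.754 FPKM in M-stamen and 0.319, 0.160 and 0 FPKM in m-stamen, and it was called in F-stamen against m-stamen (3.89, SE 0.94).

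Over all 45 loci, stamens against carpels gave 18 higher and 3 lower loci, beside 32.2% of all loci called. With both organs of the M flowers left out, 16 were higher and 2 lower of 43 tested. Within flower types the numbers were 16 higher and 9 lower in F-stamen against F-carpel (37.0% of all loci called), 18 higher and 5 lower in M-stamen against M-carpel (26.7%) and 17 higher and 3 lower in m-stamen against m-carpel (41.3%). F-stamen against M-stamen gave 2 higher and 11 lower loci (18.7% of all loci called, 8.1% lower), and F-stamen against m-stamen 3 higher and 10 lower (22.9%, 10% lower). F-carpel gave 10 higher and 11 lower loci against M-carpel (32.7%) and 12 higher and 10 lower against m-carpel (38.3%). Between M and m flowers the counts were near the shares of all loci, with 2 higher and 3 lower in M-stamen against m-stamen (13.1% of all loci called, 5.84% higher and 7.3% lower) and 5 higher and 2 lower in M-carpel against m-carpel (14.7%, 9.95% higher and 4.8% lower). The stamen-to-carpel difference itself differed between F and M flowers in 19 loci (8 higher, 11 lower, beside 30% of all loci) and between F and m flowers in 20 loci (7 higher, 13 lower, beside 34.3%).

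Other genes of the pathway were taken from 43 loci with annotations outside the rule, of which 36 were tested. In F-carpel 7 rose and 5 fell against M-carpel, and 9 rose and 6 fell against m-carpel. In stamens against carpels 4 rose and 8 fell. The totals were near the shares of all loci called (32.7%, 38.3% and 32.2%), but not the directions in stamens against carpels. There more of these loci fell than rose, while of all loci 20% were higher and 12.2% lower. LITCHI009739, a kaurene synthase, which acts before kaurene oxidase, had 10.7, 9.20 and 9.57 FPKM in F-carpel, 3.21, 2.60 and 3.36 FPKM in M-carpel and 1.58, 1.69 and 1.34 FPKM in m-carpel, and rose in F-carpel against both (log2 fold change 1.50 and 2.43). LITCHI030234, a cytochrome P450 of the family that in Arabidopsis inactivates gibberellins, had 4.06, 3.99 and 4.54 FPKM in F-carpel, 16.03, 14.6 and 14.9 FPKM in M-carpel and 22.8, 20.2 and 22.6 FPKM in m-carpel, and fell in F-carpel against both (-2.04 and -2.62). LITCHI023822, annotated as GAMYB, a transcription factor needed for anther development in rice and barley, had 19.7, 20.1 and 20.3 FPKM in F-stamen, 7.71, 8.78 and 8.07 FPKM in M-stamen and 8.55, 9.76 and 9.48 FPKM in m-stamen, and was higher in stamens than in carpels (2.40, adjusted p = 3.27e-16). These 3 loci were chosen after their values were seen.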

How the data were processed

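RNA was sequenced from carpels and stamens of the 3 flower types in triplicate, 18 libraries in all. The deposited table held, per gene model, read counts and FPKM for each library. Per the labels and the study's methods, the authors removed low-quality and ribosomal RNA reads, aligned the rest with HISAT2 2.0.4, assembled with StringTie, and took FPKM with Cufflinks from uniquely mapped reads. For the genome build and the counting program, the sources used here give no name. The table's columns of the authors' own comparisons (log2 fold change, FDR and direction from DESeq2) were not used, and 0 sample columns were without an assignment.

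The 37401 models were summed to 34024 loci. Counts were fitted with edgeR 4.0.16 in R 4.3.3 (filterByExpr by organ, TMM, quasi-likelihood test, all 6 organs in 1 model, 24666 loci) with Benjamini-Hochberg adjustment across the loci tested. An interaction is the log2 fold change of stamen over carpel in F flowers minus that in M or m flowers. The procedure was tested on simulated data with known fold changes.

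The members and lists were chosen with earlier results of these data known. By rule, values were given for the tested locus of highest mean FPKM in each role, for the called locus of largest change in each direction of each organ comparison, and for the locus of largest difference in each interaction, at a mean of at least 1 CPM for the last 2 kinds. LITCHI003858, LITCHI006115, LITCHI007943, LITCHI008022, LITCHI008177, LITCHI010899, LITCHI011632, LITCHI013336, LITCHI014296, LITCHI016130, LITCHI017070, LITCHI017978, LITCHI019539, LITCHI025158, LITCHI026328, LITCHI026563 and LITCHI028803 came from this rule, and the other loci named were chosen after their values were seen.

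Alternatives were RLE scaling, DESeq2 1.42.0, other filters, gene models kept apart, limma 3.58.1 on log2(FPKM + 1) and log2(FPKM + 0.1), a replicate block, only the organs compared, other thresholds and each library left out. The sum of LITCHI003827 and LITCHI003858 and the fits without the M-carpel libraries and without both organs of the M flowers were added after seeing the data. Replicates of an organ differed by more than sampling noise, with a chi-square per locus of 8.60 to 64.2. Intervals and floors cover counting error only.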

Additional observations from a re-analysis of the deposited data

Results flagged for a closer look

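The stamen-to-carpel difference was tested between flower types, and each locus named by rule whose difference was called is given here as a log2 value, F flowers minus the others (edgeR's quasi-likelihood test). Against M flowers the difference was positive in LITCHI028803 (GA2ox) at 5.81, LITCHI026563 (RGL1) at 4.30, LITCHI026328 (GID1B) at 2.64, LITCHI025158 (GA2ox) at 1.42 and LITCHI017070 (GA3ox) at 1.01. It was negative in LITCHI017978 (GASA) at -4.89, LITCHI007943 (GID1C) at -4.88, LITCHI019539 (GASA) at -4.00 and LITCHI014296 (GA2ox) at -2.39.

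Against m flowers it was positive in LITCHI028803 at 4.96, LITCHI026328 at 3.27, LITCHI025158 at 2.76, LITCHI003858 (GID1C) at 1.92 and LITCHI013336 at 1.58. It was negative in LITCHI017978 at -7.23, LITCHI019539 at -6.05, LITCHI016130 (GA20ox) at -5.95, LITCHI007943 at -5.91 and LITCHI014296 at -3.63. The value of LITCHI016130 is a fitted one that depends on the prior count, since m-carpel had no count of it. That of LITCHI026563 against M flowers rests on a carpel level near the floor, with a mean of 0.00475 FPKM in F-carpel. The part of stamen RNA in M-carpel, where LcPI was at 11.9% of its stamen level, was not tested for these values.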

How the results depend on the processing

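Of 361 counts of called loci under the alternatives, 336 stayed within 1.5 times the main count and 25 moved. With a mean of at least 5 CPM, which leaves 23 gibberellin loci tested, the count was 7 for stamens against carpels, 11 in F flowers, 11 in M flowers, 7 in m flowers, 7 for F-stamen against m-stamen, 2 for M-stamen against m-stamen, 4 for M-carpel against m-carpel and 11 and 13 for the interactions with M and m flowers. With limma on log2(FPKM + 1) it was 9 for stamens against carpels, 15 in M flowers, 1 for M-stamen against m-stamen and 3 for M-carpel against m-carpel, and on log2(FPKM + 0.1) F-stamen against m-stamen had 23 and M-stamen against m-stamen 9. Without a minimum fold change it was 20 for F-stamen against each of M-stamen and m-stamen, 14 for M-stamen against m-stamen and 18 for M-carpel against m-carpel. For M-stamen against m-stamen it was 9 at an adjusted p below 0.05 and 3 with gene models apart. Beyond the smaller set tested at 5 CPM, the cause was not tested.

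With each library left out in turn the counts ran from 19 to 22 for stamens against carpels, 22 to 25 in F flowers, 21 to 25 in M flowers, 18 to 21 in m flowers, 11 to 16 for F-stamen against M-stamen, 12 to 14 for F-stamen against m-stamen, 2 to 5 for M-stamen against m-stamen, 19 to 23 for F-carpel against M-carpel, 21 to 22 for F-carpel against m-carpel, 7 to 10 for M-carpel against m-carpel, and 17 to 20 and 18 to 22 for the interactions. The M-stamen against m-stamen count of 5 became 2 without M-stamen replicate 1 or m-stamen replicate 2, and 3 without M-stamen replicate 2 or m-stamen replicate 3.

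Of 5770 values of single loci, 5537 kept their call, 231 lost it and 2 reversed. LITCHI016130 had an interaction with m flowers of 0.49 with limma on log2(FPKM + 1), against -5.95, and LITCHI017070 was at 0.15 in stamens against carpels without the M-carpel libraries. That contrast sets the stamens of all flower types against the carpels of F and m flowers, so differences between flower types enter it by construction and it is no check of the organ difference. With both organs of the M flowers left out the value was -0.93. Calls lost most often were LITCHI014296 in M-stamen against m-stamen (17 alternatives), LITCHI013336 in F-stamen against F-carpel (15), LITCHI016130 in F-carpel against M-carpel (15), LITCHI003858 in F-carpel against m-carpel (14), LITCHI017070 in the interaction with M flowers (13) and LITCHI026563 in F-stamen against M-stamen (13). Limma on log2(FPKM + 0.1) moved the median of all loci by 0.32 in F-stamen against m-stamen, where 77.1% of calls were higher, against 56.2% in the counts.

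Same-numbered libraries of different organs did not deviate together (45 pairs, correlations from -0.0832 to 0.0726, 5 of 18 libraries closest to their own number). The replicate block gave 4 calls in M-stamen against m-stamen, 20 in F-carpel against M-carpel and 19 in m-stamen against m-carpel. At this depth, differences below the level of 3 counts per library were not detectable.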
